A study of Mus musculus with 6 samples.

Results

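The genes described here are the 5 NF-kB subunits (*Nfkb1*, *Nfkb2*, *Rel*, *Rela* and *Relb*) and 5 inhibitors and regulators that NF-kB itself induces (*Nfkbia*, *Nfkbie*, *Nfkbiz*, *Tnfaip3* and *Bcl3*). These 10 of the 54446 genes in the deposited values were chosen by name and not by a measured value, though with earlier results of these data known. All 10 passed the filter of the tests, which kept the 12322 genes whose mean over the libraries reached 10 normalized counts. The study compared RNA of splenic B cells from *Tent5c* KO mice and their WT littermates. TENT5C is a poly(A) polymerase that lengthens the tails of messenger RNAs. Both genotypes were of the strain mixed C57BL/6J X CBA and were 12 to 15 weeks old. Naive B cells of both were purified by removing all other cells on magnetic beads, and were grown for 7 days with 20 ng/ml IL-4, a T cell cytokine, and 20 µg/ml LPS, a bacterial cell wall component. There were 3 libraries of each genotype. A KO and a WT library with the same number, 1 to 3, came from littermates and are called a pair here. The labels also name that number as the batch, so litter and batch cannot be told apart. The labels give the genotype with no promoter or cell type that would limit the KO to B cells, and no unstimulated or earlier sample is part of the comparison.

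NF-kB is a family of transcription factors that act as dimers. Inhibitors of the IkB type hold the dimers in the cytoplasm until a signal, such as LPS at its Toll-like receptor, switches on the IKK kinases and the inhibitor is destroyed. The freed dimers then induce survival, growth and activation genes of the B cell. They also induce their own inhibitors and several of their own subunits, so the response limits itself. An alternative route, driven by receptors such as CD40 and BAFF receptor, works by processing the precursor that *Nfkb2* encodes.

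Because this self-induction acts at the promoter, the sequence before the start site is shown for a subunit and both classical IkB genes among the members. The sequences are from RefSeq on GRCm38.p6, which gave a window of 300 bases (250 before and 50 after the start site) for 7 of the 10 members, with 10 windows in all. Each line holds the 250 bases before the start site on the strand of the gene, and the capitals mark a match to GGGNNNTTCC or its reverse complement GGAANNNCCC, a form of the kB site. The *Nfkbia* stretch is chr12:55492648-55492897, minus strand, and its match begins 29 bases before the start site. The *Nfkbie* stretch is chr17:45555450-45555699, plus strand, with a match beginning 106 bases before the start. The *Rel* stretch is chr11:23770970-23771219, minus strand, with a match beginning 91 bases before the start.
Nfkbia: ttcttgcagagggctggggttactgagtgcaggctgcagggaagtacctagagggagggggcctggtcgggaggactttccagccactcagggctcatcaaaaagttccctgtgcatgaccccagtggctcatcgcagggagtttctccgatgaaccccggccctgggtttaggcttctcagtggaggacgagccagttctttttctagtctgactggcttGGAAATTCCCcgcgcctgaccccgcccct
Nfkbie: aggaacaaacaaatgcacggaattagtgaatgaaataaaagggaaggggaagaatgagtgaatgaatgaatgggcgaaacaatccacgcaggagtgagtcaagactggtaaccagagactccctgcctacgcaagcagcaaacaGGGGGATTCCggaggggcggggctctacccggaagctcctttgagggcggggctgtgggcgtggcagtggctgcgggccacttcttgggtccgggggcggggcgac
Rel: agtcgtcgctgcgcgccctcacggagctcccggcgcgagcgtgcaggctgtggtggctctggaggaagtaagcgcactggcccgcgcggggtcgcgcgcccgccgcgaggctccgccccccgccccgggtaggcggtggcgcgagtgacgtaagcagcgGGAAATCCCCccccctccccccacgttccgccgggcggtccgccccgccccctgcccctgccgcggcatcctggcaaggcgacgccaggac

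This motif, searched on both strands, was present in 8 of the 10 member windows and in 5 of the 7 members, against 5.56% of 32851 promoter windows of the same length. The windows are not all distinct: the 3 of *Nfkb2* include 2 that overlap and count the same GGGACTTTCC, so the count over members is the plainer one. The member windows were richer in G and C (median 65.2% against 52.7%), and among the 14253 windows with at least 55% G and C the share was 6.30%. *Tnfaip3* held GGAAATCCCC 12 bases before a start site. *Nfkb2* held GGAATTCCCC and GGGGCTTTCC, 38 and 11 bases before a start site. The windows of *Rela* and *Bcl3* did not hold these letters. The looser pattern GGGNNNNNCC (or GGNNNNNCCC), of which the motif above is a special case, was present in 10 of 10 member windows and in 50.8% of all windows. A match is a description of the letters, and no binding was measured.

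Depth ranged over the 6 libraries from 5393558 fragments counted in WT 3 to 6793520 in KO 3 (median 6607728.5). The libraries of pair 3 were thus the extremes of depth. *Tent5c* RNA did not separate the genotypes. Its normalized count was 1993, 993 and 1170 in KO 1, 2 and 3 and 1255, 767 and 1585 in WT 1, 2 and 3, with a log2 fold change of 0.20 (SE 0.19, adjusted *p* = 0.970, limma). A KO allele can leave the transcript in place, so this level does not check the labels, and every direction given here is that of the libraries labelled KO against those labelled WT. All 8 B cell markers listed were expressed, with sums of 32738 to 37410 normalized counts in KO and 31196 to 35359 in WT. Of 6 plasma cell markers, 5 were expressed, with sums of 7629 to 13388 in KO and 7204 to 16484 in WT. The 10 T cell markers summed to 457 to 553 in KO and 464 to 565 in WT, and all but *Lck* and *Thy1* were near 0, with 14.3 to 32.7 in KO and 15.7 to 54.2 in WT for the other 8. Myeloid markers (4 of 10 at 0 in every library) summed to 20.0 to 131 in KO and 64.8 to 90.3 in WT, and erythroid markers (4 of 7 at 0) to at most 5.72 in any library.

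The comparison asked whether the RNA of these 10 genes in activated B cells differs between the genotypes. None of the 10 members passed an adjusted *p* of 0.05 in limma, where 0% of the 12322 genes tested did. In edgeR and DESeq2 none of the members passed either, while DESeq2 called 22 other genes lower and 1 higher. The member that came nearest was *Nfkbia*, which encodes the inhibitor IkB alpha. It was 1.17-fold higher in the libraries labelled KO (95% confidence interval 1.03 to 1.32, *n* = 3 pairs). For 9 of the 10 members the 95% interval of the fold lay within 1.5-fold in either direction, the exception being *Nfkbiz*. The share of all genes tested within that bound was not computed, so this count does not set the members apart.

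At an unadjusted *p* under 0.05, 1 member was higher in KO (*Nfkbia*) and 0 were lower, against 1.67% of all genes tested that were higher and 3.03% that were lower. *Relb* and *Nfkbia* were higher in KO in all 3 pairs, a pattern found in 11.7% of all genes tested. *Nfkb1* was lower in all 3 pairs, as were 13.1% of all genes. The groups did not overlap for *Relb* and *Nfkbia*, and for 6.83% of all genes. With 10 members, these counts are too small to be set apart from such shares. The median log2 fold change of the members was 0.057, with 6 positive and 4 negative values, beside 0.00067 for all genes tested.

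**Figure D1:**
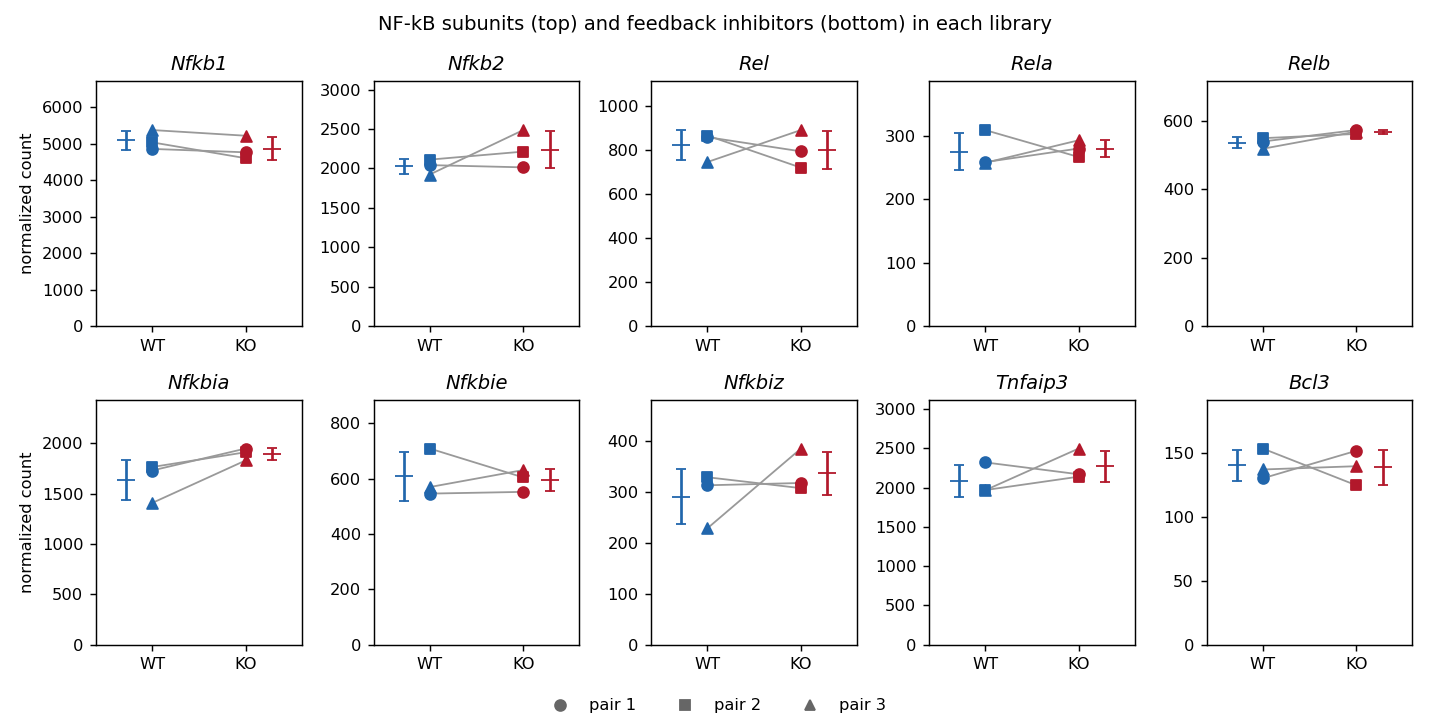
Normalized counts (vertical axes, each from 0) of the 5 subunits (top row) and 5 feedback inhibitors (bottom row) in each library, with marker shapes for pairs 1 to 3, grey lines joining the libraries of a pair, and bars for the mean and SD of the 3 libraries of a genotype (blue WT, red KO). The groups are apart only for *Relb* and *Nfkbia*, and the line of pair 3 runs upward for every member except *Nfkb1*.

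Among the subunits, *Nfkb1* (chromosome 3, 135584655 to 135691547, minus strand, GRCm38) had the highest counts. It encodes the precursor of p50, the DNA-binding partner in most classical dimers. It had 4762, 4601 and 5217 normalized counts in KO 1, 2 and 3 and 4856, 5036 and 5374 in WT 1, 2 and 3. Each KO library lay below its littermate, yet the groups overlapped. The mean was 4860 ± 320 in KO and 5089 ± 263 in WT (SD, *n* = 3). The log2 fold change was −0.067 (SE 0.059, adjusted *p* = 0.970, limma).

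*Nfkb2* (chromosome 19, 46304320 to 46312385, plus strand) encodes the precursor of p52, the subunit of the alternative route. Its 3 KO libraries had 2014, 2214 and 2488 normalized counts and the 3 WT libraries 2043, 2112 and 1923. KO 3 was the highest and WT 3 the lowest library, while the libraries of pair 1 were nearly level. The log2 fold change was 0.14 (SE 0.086, 95% interval −0.068 to 0.35, adjusted *p* = 0.970, limma), and it was 0.024 without pair 3 and 0.22 without pair 1 (unadjusted *p* = 0.0560, limma).

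*Relb* (chromosome 7, 19606217 to 19629438, minus strand) encodes the partner of p52. It was the steadiest of the 10 genes. It had 574, 562 and 569 normalized counts in KO and 540, 550 and 519 in WT, so the lowest and the highest library differed by 1.11-fold. All 3 KO libraries lay above all 3 WT libraries, by a small margin. This came to a log2 fold change of 0.084 (SE 0.069, 95% interval −0.080 to 0.25, adjusted *p* = 0.970, limma).

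*Rel* (chromosome 11, 23736847 to 23770970, minus strand) encodes c-Rel, a subunit that lymphocytes use to enter the cell cycle. It had 794, 720 and 891 normalized counts in KO and 858, 866 and 745 in WT. The pairs disagreed: KO was lower in pairs 1 and 2 and higher in pair 3. Its log2 fold change was −0.041 (SE 0.11, adjusted *p* = 0.984, limma), and 0.072 without pair 2. Without pair 3 it was −0.19 with an unadjusted *p* of 0.0440 in limma, and over all alternatives the adjusted *p* lay from 0.942 to 1.00. *Rela* (chromosome 19, 5637483 to 5648130, plus strand) encodes p65, the widely expressed activating subunit. It had 280, 267 and 293 normalized counts in KO and 259, 309 and 258 in WT. WT 2 was the highest library and the other WT libraries were the lowest, so the WT group enclosed the KO group. The log2 fold change of 0.029 (SE 0.11, adjusted *p* = 0.992, limma) turned to −0.013 without pair 1 and to −0.049 without pair 3.

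Of the inhibitors, *Nfkbia* (chromosome 12, 55489410 to 55492647, minus strand) is the fastest and best known feedback gene, whose kB-like match is printed above. It had 1948, 1911 and 1830 normalized counts in KO 1, 2 and 3 and 1729, 1764 and 1406 in WT 1, 2 and 3. All 3 KO libraries were above all 3 WT libraries, and WT 3 stood below the others. The mean was 1896 ± 60.5 in KO and 1633 ± 197 in WT (SD, *n* = 3). The log2 ratio of KO to WT was 0.17, 0.12 and 0.38 in pairs 1, 2 and 3. The log2 fold change was 0.22 (SE 0.072, unadjusted *p* = 0.0193, adjusted *p* = 0.970, limma), which placed *Nfkbia* at rank 231 by *p* among the genes tested. Without pair 3 it was 0.14, with an unadjusted *p* of 0.0675 in limma, and without the replicate block the unadjusted *p* was 0.0511.

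*Nfkbie* (chromosome 17, 45555703 to 45563169, plus strand) encodes IkB epsilon, a slower inhibitor of the same type. It had 552, 604 and 631 normalized counts in KO and 546, 709 and 570 in WT. WT 2 was the highest library and the KO values lay within the WT range. For *Nfkbie* the log2 fold change was −0.022 (SE 0.090, adjusted *p* = 0.992, limma), and 0.082 without pair 2. The difference between *Nfkbia* and *Nfkbie* was not tested.

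*Tnfaip3* (chromosome 10, 19000910 to 19015657, minus strand) encodes A20, a ubiquitin-editing enzyme that shuts off signalling upstream of IKK. It had 2171, 2140 and 2499 normalized counts in KO and 2322, 1969 and 1966 in WT. KO 3 was the highest library, and KO was lower than WT in pair 1 and higher in the others. KO and WT differed by a log2 fold change of 0.12 (SE 0.090, 95% interval −0.094 to 0.34, adjusted *p* = 0.970, limma). It was 0.011 without pair 3 and 0.23 without pair 1, there with an unadjusted *p* of 0.0382 in limma, and over all alternatives the adjusted *p* lay from 0.635 to 1.00.

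*Nfkbiz* and *Bcl3* encode nuclear IkB proteins, which bind p50 or p52 dimers on DNA and can activate as well as repress. *Nfkbiz* (chromosome 16, 55811375 to 55838899, minus strand) had 318, 308 and 386 normalized counts in KO and 314, 329 and 229 in WT. It varied most of the 10 genes, by 1.69-fold from WT 3 to KO 3, the libraries of 1 pair. Its log2 fold change was 0.23 (SE 0.17, 95% interval −0.18 to 0.63, adjusted *p* = 0.970, limma), and −0.038 without pair 3, so its direction rests on that pair. *Bcl3* (chromosome 7, 19808462 to 19822770, minus strand) had the lowest counts, with 152, 125 and 140 in KO and 130, 154 and 137 in WT. The highest library was WT 2 and the lowest was its littermate KO 2, while the order was the opposite in pair 1. Its log2 fold change was −0.017 (SE 0.13, 95% interval −0.34 to 0.31, adjusted *p* = 0.993, limma), and 0.12 without pair 2.

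The pairs did not move together. Of the 10 members, 6 were higher in KO in pair 1, 4 in pair 2 and 9 in pair 3. The median log2 ratio of the members came to 0.018, −0.11 and 0.22 in pairs 1, 2 and 3, where that of all genes tested came to −0.0093, 0.000025 and 0.0032. Subunits and inhibitors shared this order, with medians of −0.020, −0.13 and 0.19 for the subunits and 0.021, −0.097 and 0.35 for the inhibitors. Without pairs 1, 2 and 3 in turn the median log2 fold change of the members was 0.039, 0.12 and −0.039.

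**Figure D2:**
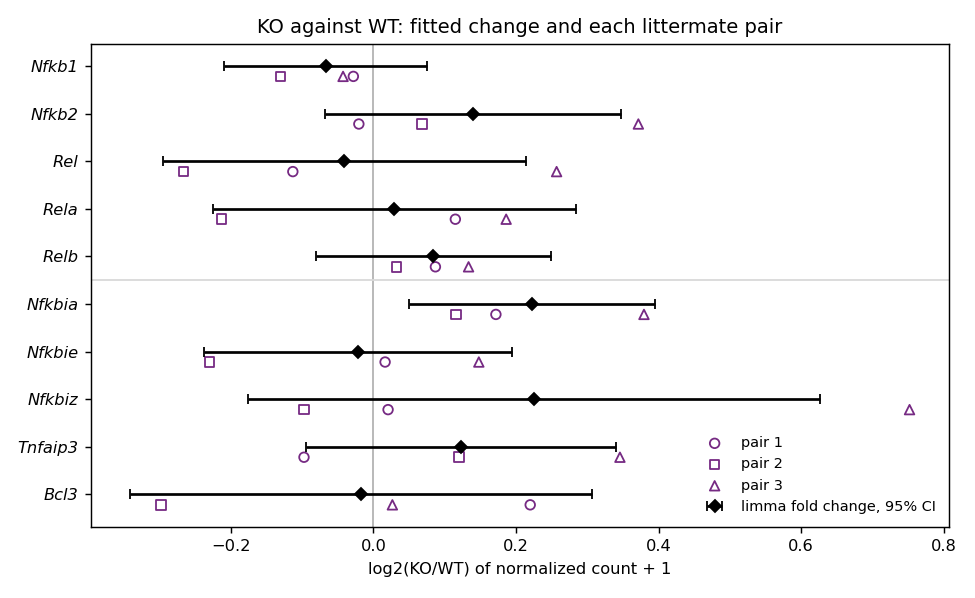
Log2 ratio of the libraries labelled KO to those labelled WT (horizontal axis, on normalized counts + 1) for each member, with the limma estimate and its 95% confidence interval in black and the ratio within each littermate pair as an open marker. Only the interval of *Nfkbia* (0.049 to 0.40) lies on one side of 0, at an adjusted *p* of 0.970, and pair 3 is the rightmost marker for 8 of the 10 members.

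The WT library of pair 3 was the lowest of the 6 for 6 members (*Nfkb2*, *Rela*, *Relb*, *Nfkbia*, *Nfkbiz* and *Tnfaip3*), and for 21.9% of all genes tested. It was the highest for 1 member, *Nfkb1*, and for 23.1% of all genes. The KO library of pair 3 was the highest for 4 members (15.0% of all genes). The markers of cell types differed within pairs too. The plasma cell markers summed to 16484 in WT 3, the highest value of the 6 libraries, against 9262 in KO 3. *Jchain* alone had 8096 in WT 3 and 2722 in KO 3, so it weighs heavily in that sum. The B cell markers summed to 31196 in WT 3, the lowest value, against 37410 in KO 3. In pair 1 the plasma cell markers went the other way, with 13388 in KO 1 against 9318 in WT 1, and in pair 2 they were 7629 in KO 2 and 7204 in WT 2. Whether the share of plasma cells had a part in the ratios of any pair was not tested, and in bulk RNA fewer cells of a type cannot be told apart from less RNA per cell.

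The spread of the members was close to that of genes with a mean of at least 100, a set not matched to them by level. The SD of their log2 values over the 6 libraries had a median of 0.13. It was 0.17 for all genes tested and 0.13 for those with a mean of at least 100. Of the 10 members, 8 lay below the median of all genes and 5 below that of genes with a mean of at least 100. None of the members had a log2 fold change beyond 0.3 in either direction, compared with 13.6% of all genes tested and 4.76% of those with a mean of at least 100. Even the lowest count, 114 fragments for *Bcl3*, carries a counting error of 9.37%. For 6 members the range of the pair means (highest minus lowest, in log2) was larger than the absolute log2 fold change. A range can exceed a mean difference by noise alone, and this count was not made for all genes. It therefore does not set the members apart.

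The balance between subunits was examined as a ratio within each library, which does not depend on how libraries are scaled. The ratio of *Rel* to *Rela* counts was 2.83, 2.69 and 3.03 in KO 1, 2 and 3 and 3.31, 2.79 and 2.89 in WT. KO was lower than WT in pairs 1 and 2 and higher in pair 3, with a mean log2 difference of −0.070 ± 0.15 (SD, *n* = 3 pairs, two-sided exact permutation *p* = 0.75). The ratio of *Nfkb2* to *Nfkb1*, the precursors of the alternative and the classical route, was 0.423, 0.481 and 0.477 in KO and 0.421, 0.419 and 0.358 in WT. It was higher in KO in 3 of 3 pairs, though by little in pair 1. The mean log2 difference was 0.21 ± 0.20 (SD, *n* = 3 pairs), with a two-sided exact permutation *p* of 0.25, the smallest that 3 pairs can give. It was 0.10 without pair 3 and 0.31 without pair 1.

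Levels were then compared between members as normalized counts per kilobase of exon. *Nfkbia* was the highest, with a median over the 6 libraries of 1116 per kb, followed by *Nfkb2* at 453, *Nfkb1* at 410.1, *Tnfaip3* at 298 and *Nfkbie* at 193. The other subunits came below these inhibitors, with *Relb* at 143, *Rel* at 111 and *Rela* at 89.1, and the nuclear IkB genes were lowest, *Nfkbiz* at 62.9 and *Bcl3* at 56.0. By this length the inhibitor of the classical dimers had the most RNA of the 10, and p65, the best known subunit, the third lowest level. *Nfkbia* was 2.35-fold above *Nfkb2* and higher in 6 of 6 libraries. Neighbours whose ranges overlapped were *Nfkb2* and *Nfkb1*, *Rel* and *Rela*, and *Nfkbiz* and *Bcl3*, although *Rel* was above *Rela* in 6 of 6 libraries.

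The order depends on the length used. The exons of all *Nfkb1* transcripts together cover 12061 bases, but its longest coding transcript has 4117. Per kb of the longest coding transcript, a length chosen after the values were seen, *Nfkb1* had a median of 1201 and stood above *Nfkbia* at 1139. Their ranges over the 6 libraries overlapped, with 1118 to 1305 for *Nfkb1* and 891 to 1234 for *Nfkbia*. By this length 5 of the 10 members kept their rank. These are levels of RNA and not of protein, and *Nfkb1* and *Nfkb2* messages are each translated into a precursor that also acts as an inhibitor until it is processed.

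**Figure D3:**
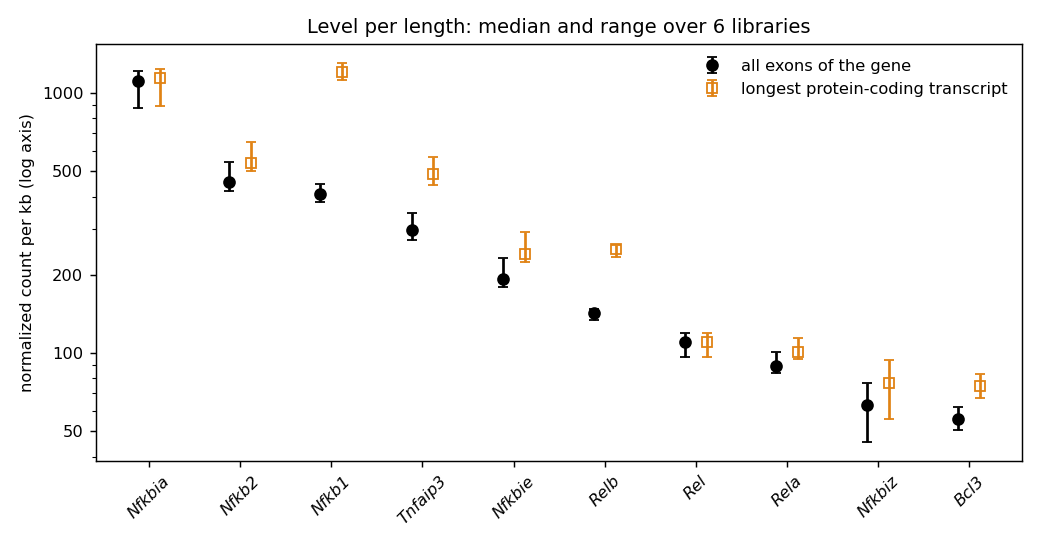
Level of each member as normalized counts per kb (vertical log axis), as the median and range over the 6 libraries, for the length of all exons (black circles) and of the longest protein-coding transcript (orange squares). *Nfkbia* is highest by exon length at 1116 per kb, and *Nfkb1* moves from 410.1 to 1201 per kb with the other length.

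The rest of the pathway was read from 4 lists, and none of their 56 genes passed an adjusted *p* of 0.05 in limma. Over all 56 the log2 fold change was positive for 28 and negative for 28, with a median of 0.0063. In all 3 pairs 9 genes were higher in KO and 10 lower, beside the 11.7% and 13.1% of all genes given above.

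IKK and its upstream kinases (10 genes) turn the receptor signal into destruction of IkB. Their median log2 fold change was −0.031, with 4 positive and 6 negative values. *Tab2*, a scaffold of the TAK1 kinase, had 670, 640 and 626 normalized counts in KO and 616, 572 and 519 in WT. The groups did not overlap for *Tab2*, a pattern found in 6.83% of all genes tested. Its log2 fold change was 0.18 (SE 0.070, unadjusted *p* = 0.0357, adjusted *p* = 0.970, limma), and it was the 1 gene of the 56 at an unadjusted *p* under 0.05. *Map3k7*, which encodes TAK1 itself, had a log2 fold change of −0.13 (unadjusted *p* = 0.0978, limma). The estimates of the kinase and its scaffold lay on opposite sides of 0, and the difference between them was not tested.

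The adaptors and ubiquitin ligases (11 genes) link receptors to IKK. Their median was −0.044, with 5 positive and 6 negative values. *Traf2*, an adaptor of the TNF receptor family that restrains the alternative route, had 335.0, 330 and 317 normalized counts in KO and 345, 377 and 378 in WT. All KO libraries lay below all WT libraries, and the log2 fold change was −0.16 (SE 0.083, unadjusted *p* = 0.0942, limma). *Birc2*, the ubiquitin ligase cIAP1 that works with it, had a log2 fold change of 0.12 (unadjusted *p* = 0.157, limma).

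Of the other inhibitors (11 genes), 4 had a positive and 7 a negative log2 fold change, with a median of −0.025. *Tnip1*, a partner of A20, had 203, 240.2 and 241 normalized counts in KO and 176, 220 and 199.9 in WT. It was higher in KO in all 3 pairs, and its log2 fold change was 0.20 (SE 0.092, unadjusted *p* = 0.0682, limma). *Itch*, a ubiquitin ligase that also works with A20, was lower in all 3 pairs with a log2 fold change of −0.12 (unadjusted *p* = 0.0825, limma). *Nfkbid*, the other nuclear IkB gene measured, was chosen after its values were seen for having the lowest log2 fold change of the 56. It had 51.9, 70.5 and 57.2 normalized counts in KO and 76.5, 78.4 and 68.6 in WT, a log2 fold change of −0.32 (SE 0.16, unadjusted *p* = 0.0913, adjusted *p* = 0.970, limma).

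The targets of NF-kB in B cells (24 genes) had a median log2 fold change of 0.060, with 15 positive and 9 negative values. Without pairs 1, 2 and 3 in turn this median was 0.094, 0.00059 and 0.078. *Traf1*, an adaptor used as a readout of NF-kB activity, had 1680, 1528 and 1861 normalized counts in KO and 1712, 1363 and 1459 in WT. It was higher in KO in 2 of 3 pairs, with a log2 fold change of 0.16 (SE 0.083, unadjusted *p* = 0.0947, limma). *Ier3*, an immediate early gene, had a log2 fold change of 0.33 (SE 0.22, unadjusted *p* = 0.173, limma) at no more than 37.2 normalized counts in a library. The 3 *Bcl2a1* genes of this list are near-identical copies, so how reads are split between them is uncertain.

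**Figure D4:**
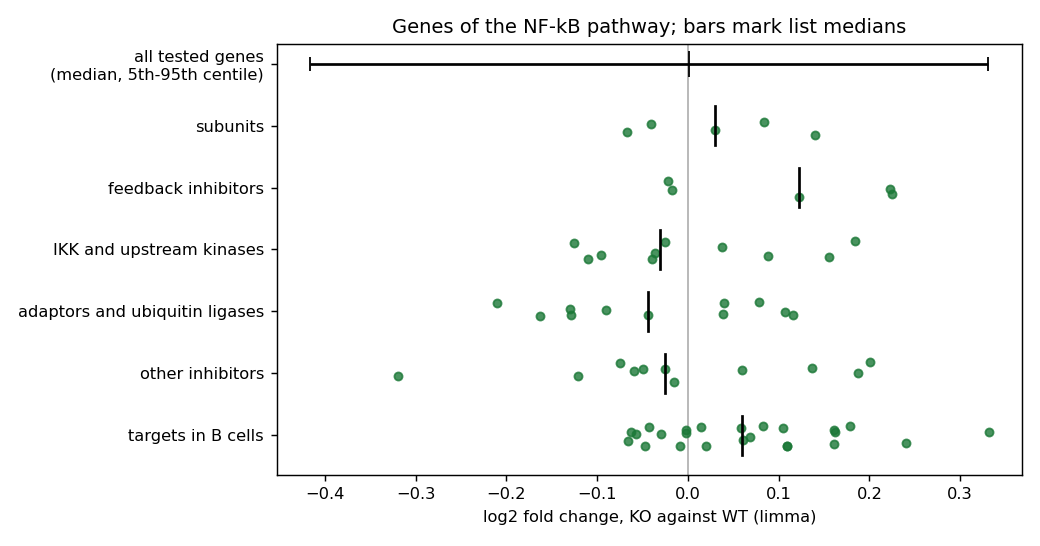
Log2 fold change of KO against WT (horizontal axis, limma) of each gene in the 2 member groups and the 4 pathway lists, 1 point a gene, with a black bar at the median of each list. The top row gives the median of all 12322 genes tested and a line from their 5th to their 95th centile (−0.42 to 0.33), and every listed gene lies near or within that line.

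Correlations between members were mixed, and pairs of other genes were not compared in this way. Over the 6 libraries, 37 of the 45 pairs of members had a positive Pearson correlation of log2 values, with a median of 0.40, from −0.76 for *Nfkb1* and *Nfkbia* to 0.94 for *Relb* and *Nfkbia*. The genes most like the mean profile of the members, among the 7896 others whose mean reached 100 normalized counts, were *Lcor* (*r* = 0.999), *Slc39a1* (0.993), *Cnot2* (0.989), *Mbp* (0.989) and *Rnf214* (0.987). *Lcor*, which encodes a corepressor of nuclear receptors, had 269.9, 255 and 301 normalized counts in KO and 258, 282 and 239.6 in WT. As in the mean profile of the members, KO 3 was the highest and WT 3 the lowest library. These correlations describe 6 libraries that share pairs and depth, and with so few points many genes reach high values.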

How the data were processed

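Total RNA of the 6 cultures was ribodepleted, made into strand-specific libraries and sequenced in paired reads. Per the labels and methods, the authors aligned reads with STAR 2.6.1a to mm10 (GRCm38) and counted fragments on exons by strand with featureCounts (Subread 1.6.3). The deposited values are a signal, fragment counts divided by DESeq2 size factors, so these values cannot show a shift common to most genes. Whole fragments were recovered from them (100% of values above 0, within 0.01 of a step). A value of 0 means that no fragment was counted. It need not mean that the RNA was absent, and 3 fragments were taken as the floor. Positions are from Gencode vM21, which matched 54409 of 54446 identifiers.

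Tests used limma 3.58.1 (R 4.3.3; lmFit and eBayes with trend, two-sided, Benjamini-Hochberg over all 12322 genes) on log2(normalized count + 1), with the pair as a block, so fold changes are on that scale and understate low genes. Pairing comes from the methods (littermates). Deviations from the group means correlated between the 2 libraries of pairs 1, 2 and 3 over genes (*r* = 0.328, 0.685 and 0.170). Between libraries of different number *r* lay from −0.497 to 0.282. KO 3 correlated more with WT 1 (0.282) than with its littermate WT 3, and KO 1 reached 0.260 with WT 3. These values therefore do not bear out pair 3, which rests on the methods alone. No libraries were duplicates (chi-square per gene 4.82 to 24.3). Exact permutation tests flipped the signs of 3 pairs. In each pathway list the genes with the 2 smallest *p*-values were named, and 5 genes were named for likeness. As alternatives, the recovered fragments were tested in DESeq2 1.42.0 and edgeR 4.0.16, beside other pseudocounts, filters, scalings, no block and leaving out each pair. The limma, edgeR and DESeq2 steps were tested on simulated data. The 10 members and the lists were chosen with earlier results of these data known.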

Additional observations from a re-analysis of the deposited data

How the results depend on the processing

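Over 12 alternatives, 114 of 120 member values kept their direction and side of the threshold, 6 changed direction and 0 passed it (smallest adjusted *p* 0.595, *Nfkbia* without pair 1, limma). All 6 came from leaving out 1 pair. Over these 3 fits the log2 fold change lay from −0.049 to 0.15 for *Rela*, −0.19 to 0.072 for *Rel*, −0.11 to 0.082 for *Nfkbie*, −0.14 to 0.12 for *Bcl3* and −0.038 to 0.39 for *Nfkbiz*. For members that kept their direction it lay from −0.086 to −0.035 for *Nfkb1*, 0.024 to 0.22 for *Nfkb2*, 0.060 to 0.11 for *Relb* and 0.011 to 0.23 for *Tnfaip3*. The log2 difference of the *Rel* to *Rela* ratio lay from −0.14 to 0.0087 and that of *Nfkb2* to *Nfkb1* from 0.10 to 0.31. *Nfkbia* ranged from 0.14 to 0.28 over all 12, with unadjusted *p* of 0.0155 to 0.0675. The 4 list medians moved by less than the spread between pairs, a wide bound that does not show them to be stable. That of the other inhibitors turned from −0.025 to 0.0031 without pair 2. Of all genes, those at an adjusted *p* under 0.05 ranged without 1 pair from 0 to 168 lower and 0 to 3 higher (168 and 3 without pair 1), and those at an unadjusted *p* under 0.05 from 292 to 627 lower. DESeq2 called 22 lower and 1 higher, with 194 and 33 unadjusted. Without the replicate block 170 were lower and 126 higher unadjusted, no gene passed, and no call on a member changed at the adjusted threshold. With no filter 377 were higher unadjusted. The causes were not tested. By the length of the longest coding transcript, chosen after seeing the data, 5 of 10 members kept their rank by level. A scaling moved the median of all genes by at most 0.016. Under quantile normalization the log2 fold change of *Nfkb1* was −0.015 (unadjusted *p* = 0.823, limma), nearer 0 than in the fits without a pair. Depth limits *Bcl3* most (114 fragments at the lowest), and 3 pairs cannot give an exact *p* under 0.25.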
